A study of Homo sapiens with 12 samples.

Results

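The genes described here are the histone lysine and arginine methyltransferases and the histone demethylases of SK-UT-1, an established human uterine leiomyosarcoma cell line. They were chosen by a rule on gene names, with earlier results of these data known. A gene symbol was a member when it began with KDM, KMT, SETD, PRMT, SMYD, SUV39H or NSD followed by a digit, or was DOT1L, ASH1L, EHMT1, JMJD1C, JMJD6, PHF8 or PHF2. This gave 63 of the 22784 symbols with values, of which 60 passed the filter on low values, among 14839 symbols that passed in all. The prefixes also caught 5 noncoding or pseudogene symbols, which are described apart but counted among the members. Of these, 3 were tested. Total RNA was sequenced from cells kept for 48 h with DMSO, the vehicle, with JQ1 at 5 µM or with I-BET 762 at the same dose. JQ1 and I-BET 762 are triazolodiazepine inhibitors that compete with acetylated lysine for the bromodomains of the BET proteins, with a thieno-fused ring in JQ1 and a benzo-fused ring in I-BET 762. The values cover 3 DMSO, 4 JQ1 and 3 I-BET 762 libraries of the same parental line, and the labels do not say whether they came from separate cultures, so p-values measure only the spread between these libraries. All of the groups are 1 cell line, and both comparisons with DMSO share the same 3 DMSO libraries.

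Histone lysine methyltransferases carry a SET domain, with DOT1L as the exception, and place methyl groups on a given residue from S-adenosylmethionine. Arginine methyltransferases, the PRMT proteins, do the same on arginine. Demethylases remove lysine methylation through either a flavin-dependent amine oxidase (the LSD proteins KDM1A and KDM1B) or an iron-dependent Jumonji domain (the other KDM proteins). Methylation of H3K4, H3K36 and H3K79 is found on transcribed genes, whereas dimethylation and trimethylation of H3K9 and trimethylation of H3K27 are found mainly on silent chromatin. BET proteins bind acetylated histones rather than methylated ones, and the study asked which epigenetic regulators changed in expression when they were inhibited.

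The sequences directly upstream of 5 members are shown. KDM1B, SETD6, PHF2 and PRMT6 ranked high among members called alike with both inhibitors, by the smaller absolute log2 fold change. KDM7A differed most between the inhibitors. SETD9, which also ranked high and rose, held 1 GC box match but is not printed, because its searched bases lie inside the annotated gene. NSD1 and KDM4D, also called alike with both, ranked lower and are not shown. The sequences were read from RefSeq on GRCh38.p14 and stop before the first annotated base of the gene. Capitals mark every match, on either strand, to 1 of 7 motifs, namely CACGTG (the E-box), the letters CCAAT (the CCAAT box), the core of the GC box (GGGCGG), the cAMP response element (TGACGTCA), an ETS factor core (CCGGAAG), the letters TATAAA (the TATA box) and the palindromic NRF1 motif. None of these was allowed a mismatch. KDM1B and SETD6 rose, PHF2 and PRMT6 fell, and KDM7A rose with JQ1.
KDM1B, chr6:18155172-18155328, plus strand: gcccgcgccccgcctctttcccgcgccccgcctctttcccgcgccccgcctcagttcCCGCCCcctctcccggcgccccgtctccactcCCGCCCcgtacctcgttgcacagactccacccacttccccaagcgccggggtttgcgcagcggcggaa
SETD6, chr16:58515267-58515478, plus strand: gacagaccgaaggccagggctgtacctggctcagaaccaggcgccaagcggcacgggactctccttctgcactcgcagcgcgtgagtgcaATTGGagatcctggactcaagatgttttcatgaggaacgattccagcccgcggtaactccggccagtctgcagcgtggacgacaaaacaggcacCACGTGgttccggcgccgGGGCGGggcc
PHF2, chr9:93576334-93576583, plus strand: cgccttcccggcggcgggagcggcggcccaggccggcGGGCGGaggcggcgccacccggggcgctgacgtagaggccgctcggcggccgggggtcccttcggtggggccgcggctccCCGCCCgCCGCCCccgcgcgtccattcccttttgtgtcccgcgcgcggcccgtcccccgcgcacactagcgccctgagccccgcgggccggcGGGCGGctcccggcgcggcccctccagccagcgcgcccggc
PRMT6, chr1:107056424-107056673, plus strand: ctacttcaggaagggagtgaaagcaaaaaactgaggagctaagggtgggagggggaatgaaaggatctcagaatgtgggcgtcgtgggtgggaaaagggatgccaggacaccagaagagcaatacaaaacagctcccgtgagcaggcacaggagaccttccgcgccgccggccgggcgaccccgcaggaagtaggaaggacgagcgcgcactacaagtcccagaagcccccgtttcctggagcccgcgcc
KDM7A, chr7:140176984-140177233, minus strand: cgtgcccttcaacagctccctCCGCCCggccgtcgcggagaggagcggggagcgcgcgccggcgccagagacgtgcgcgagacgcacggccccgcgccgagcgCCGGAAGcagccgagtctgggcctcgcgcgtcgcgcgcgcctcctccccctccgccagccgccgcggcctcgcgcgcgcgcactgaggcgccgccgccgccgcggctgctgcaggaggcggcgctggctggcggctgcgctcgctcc

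The 250 bases before each RefSeq start were searched for these letters in 34789 promoters and in the 57 members that have one in the table. Each member gave a single promoter, the start nearest that of its canonical transcript. The full set kept every distinct start, so a gene could enter it more than once and the shares come from unlike sets. The GC box core was held by 80.7% of the member promoters and 42.6% of all promoters. The TATA box was held by 1.75% of the members and 10.8% of all. The remaining shares were 12.3% against 6.33% for the E-box, 36.8% against 32.0% for the CCAAT box, 15.8% against 8.48% for the ETS core, 3.51% against 1.64% for the cAMP response element and 1.75% against 1.02% for the NRF1 motif. The median GC content was 67.2% over the member promoters and 58.0% over all. Among the shown genes, PHF2 held 4 GC box matches and fell, while KDM1B held 3, of which 2 lie in the printed stretch, and rose. PRMT6 held none of the 7 motifs. SETD6 held an E-box, a CCAAT box and a GC box within its printed bases. The GC box core therefore occurred in genes that moved in either direction. The E-box, CCAAT box and ETS core matches among these genes were all in SETD6 or KDM7A, which rose, KDM7A with JQ1. A link between motif and direction was not tested, and a match is a description of the sequence, not a binding site.

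Reads on genes numbered 35564586 to 39658989 per library, and 3 reads, the most that a count of 0 allows, equal 2.73 to 3.30 normalized counts. Of 7 smooth muscle markers with values, 6 (ACTA2, CALD1, TAGLN, DES, CNN1 and LMOD1) were detected with DMSO and fell with both inhibitors, while MYOCD reached at most 1.10 normalized counts in any library. Their summed level was 17927 to 19004 normalized counts with DMSO, 7977 to 8651 with JQ1 and 9253 to 9637 with I-BET 762, and DES fell 24.8-fold with JQ1 and 8.91-fold with I-BET 762. Of 5 epithelial markers, 4 (EPCAM, KRT8, KRT18 and KRT19) were tested, of which 4 fell with JQ1 and 3 with I-BET 762, and the list summed to 1212 to 1271 normalized counts with DMSO, 511 to 602 with JQ1 and 497 to 544 with I-BET 762. The part of these markers in the members' results was not tested. The endothelial genes CDH5, PECAM1 and VWF and the immune gene PTPRC stayed at or under 4.06 normalized counts in every library, and the immune gene CD14 was at 17.7 to 37.0. HEXIM1, a gene commonly used to follow BET inhibition, was at 1601 to 1641 normalized counts with DMSO, 4451 to 4898 with JQ1 and 3251 to 3528 with I-BET 762. Levels between genes are compared below as normalized counts per kb of the canonical transcript, and levels of 1 gene between libraries as normalized counts. A differentially expressed gene (DEG) had a Benjamini-Hochberg adjusted p under 0.05 in limma over the 14839 symbols and a fold change over 1.5.

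In DMSO-treated cells the arginine methyltransferase PRMT1, the main source of asymmetric dimethylarginine, had the highest level of all members, at 7114 ± 136 normalized counts per kb (SD, n = 3). The LSD demethylase KDM1A followed at 4870 ± 193 and PRMT5, which makes symmetric dimethylarginine, at 3007 ± 156. The libraries of these 3 genes did not overlap. Over the union of annotated exons in place of the canonical transcript, the order changed, with PRMT5 at 2115, PRMT1 at 1970, KDM3B at 1068 and KDM1A at 820 normalized counts per kb, so the order between genes depends on the length used. By that length NSD2 was at 544, and SUV39H2 (474) in place of EHMT1 (139) was the highest H3K9 methyltransferase. KDM5C, an H3K4 demethylase, was at 1655 ± 68.3 and NSD2, an H3K36 dimethylase, at 1464 ± 87.2. The highest member of the other role groups was SETD3 (1361 ± 67.3), a methyltransferase of actin histidine, KDM3B (1250 ± 30.9) for the H3K9 demethylases, JMJD6 (943 ± 41.3) and the H4K20 monomethylase KMT5A (940 ± 28.1). KMT5A and JMJD6 did not differ beyond their spread, and neither did SETD3 and SMYD2 (1326 ± 30.5), which share a role group. The H3K36 demethylase KDM2A reached 652 ± 28.8, the H3K9 methyltransferase EHMT1 607 ± 7.41 and the H3K27 demethylase KDM6A 578 ± 13.3 normalized counts per kb. Highest in the group listed as H3K4 methyltransferases was KMT2E at 365 ± 4.72, not separate from KMT2C (356 ± 30.0), and DOT1L was at 75.5 ± 6.57.

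The lowest tested coding member was KDM6B, an H3K27 demethylase, at 24.7 ± 2.09 normalized counts per kb, followed by SETD1B at 53.1 ± 6.76. SMYD1, a myogenic member of the SMYD proteins, had at most 2 reads in any library. It was not tested, and neither were the pseudogene KMT5AP3, with at most 1 read, and PRMT5-DT, with at most 17.

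**Figure D1:**
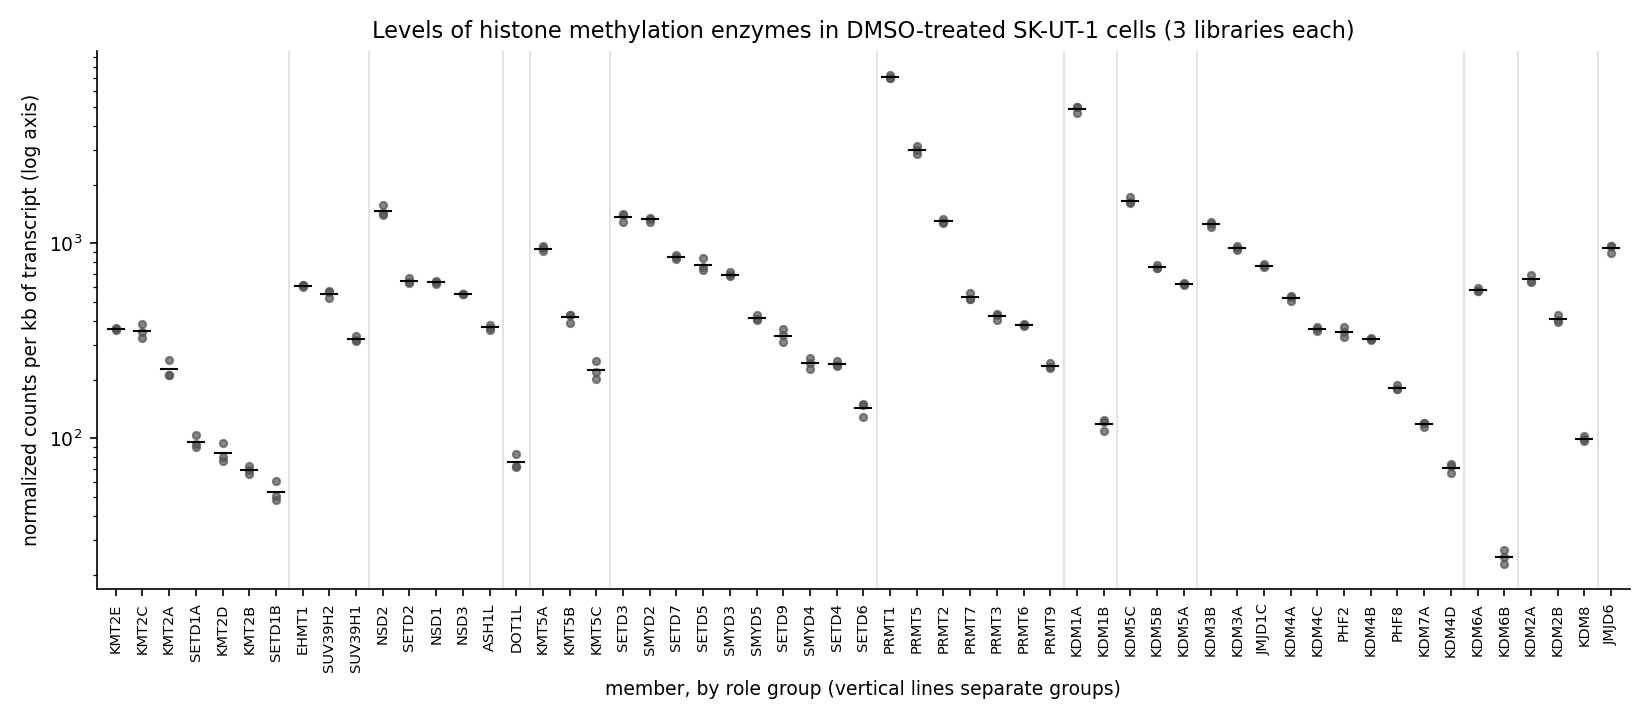
Normalized counts per kb of canonical transcript, on a log axis, of each tested coding member in the 3 DMSO libraries (points) with their mean (bar), ordered within role groups that vertical lines separate. PRMT1 sits highest at 7114 and KDM6B lowest at 24.7 normalized counts per kb.

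JQ1 changed 11 of the 60 tested members, 5 up (1 of them the noncoding KDM7A-DT) and 6 down. This is 18.3% of the members, against 36.1% of all tested symbols that were DEGs with JQ1 (13.3% up and 22.8% down). I-BET 762 changed 8, 4 up and 4 down, or 13.3% of the members against 26.9% of all tested symbols (8.96% up and 17.9% down). With the fold threshold left aside, the share of members past an adjusted p of 0.05 in limma was near the background, at 73.3% against 71.7% with JQ1 and 60.0% against 61.1% with I-BET 762. The absolute log2 fold changes of the members had a median of 0.30 for JQ1 and 0.18 for I-BET 762, and those of all tested symbols 0.43 and 0.33. All JQ1 libraries lay above all DMSO libraries for 23 members and below them for 19, where 68.4% of all tested symbols showed no overlap in 1 direction or the other. The same held for 24 and 21 members with I-BET 762, against 71.0% of all tested symbols. The median signed log2 fold change of the members was 0.06 with JQ1 and −0.01 with I-BET 762. Members also had higher values than other genes, with a median mean normalized count of 2007 against 809. Among symbols whose mean was 100 normalized counts or more, 18.6% of 59 members and 30.3% of all were DEGs with JQ1, and 13.6% and 21.1% with I-BET 762.

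Of the 12 members that were a DEG with at least 1 inhibitor, 7 were called in the same direction with both, 4 with JQ1 alone and 1 with I-BET 762 alone. None was called in opposite directions, in comparisons that share their DMSO libraries. KDM1B, SETD9 and SETD6 rose with both, while PHF2, PRMT6, NSD1 and KDM4D fell with both. The split between rises and falls depended on the scaling of the libraries. When the libraries were rescaled to equal totals, 2 members rose and 9 fell with JQ1, and 2 rose and 7 fell with I-BET 762. That rescaling moved the median log2 fold change of all tested symbols to −0.18 with JQ1 and −0.10 with I-BET 762.

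**Figure D2:**
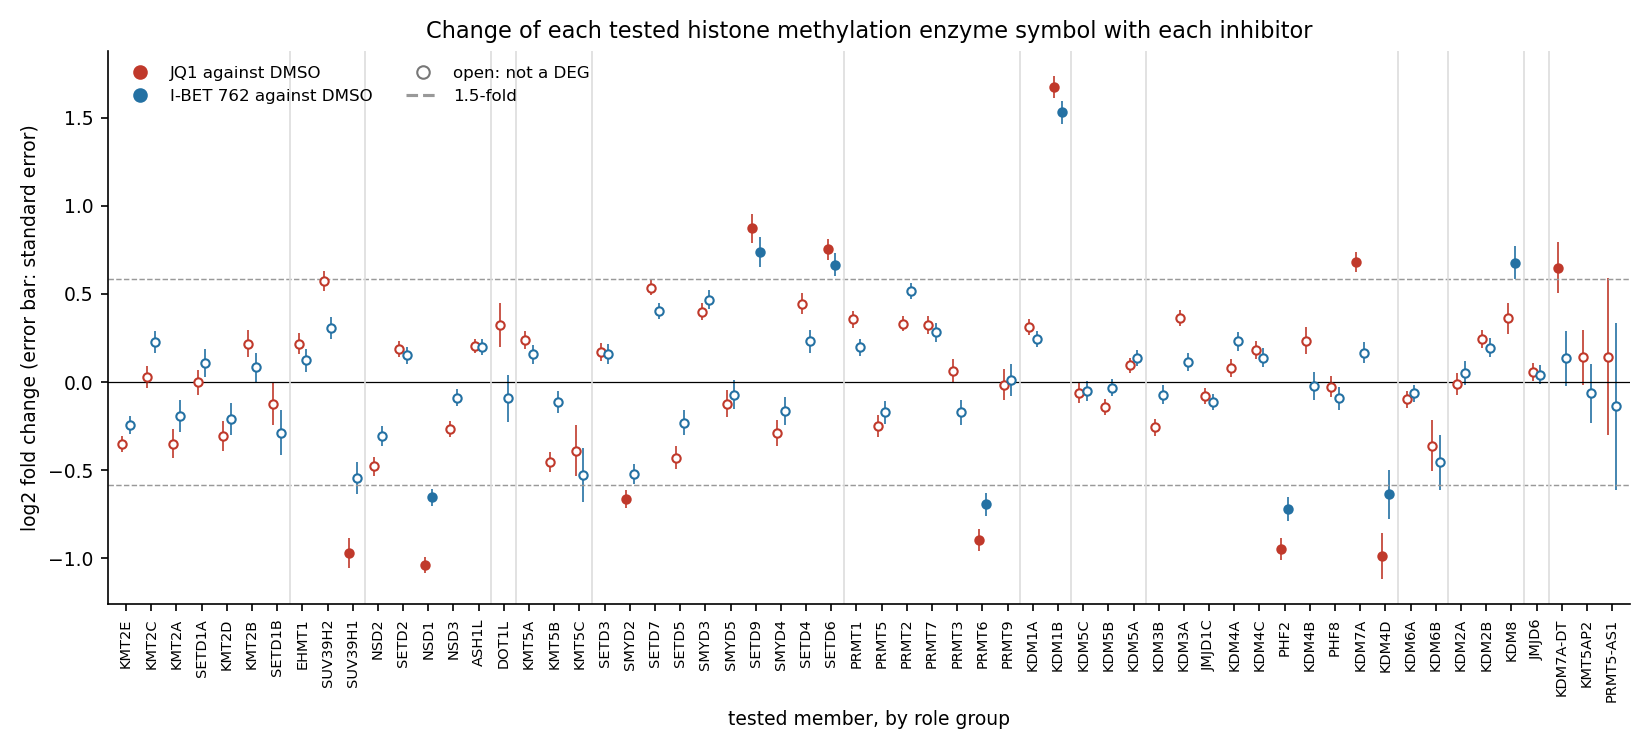
Log2 fold change against DMSO of the 60 tested members with JQ1 (red) and I-BET 762 (blue), with the standard error as bars, by role group. Filled points are DEGs and dashed lines mark 1.5-fold; KDM1B stands above all others at 1.67 and 1.53, and most points lie between the dashed lines.

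The largest rise was that of KDM1B (LSD2, ENSG00000165097.16, chr6:18155329-18223854), a flavin-dependent H3K4 demethylase of gene bodies. Its normalized counts were 550, 494 and 563 in the DMSO libraries, 1621, 1842, 1711 and 1674 in the JQ1 libraries, and 1557, 1540 and 1542 in the I-BET 762 libraries. Every treated library lay above every DMSO library, and the JQ1 libraries lay above those of I-BET 762. The log2 fold change was 1.67 (SE 0.06, limma adjusted p = 1.63e-12) with JQ1 and 1.53 (SE 0.07, adjusted p = 3.23e-11) with I-BET 762, or 3.19-fold and 2.89-fold. It ranged from 1.43 to 1.71 across all the processing alternatives and both inhibitors.

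KDM1A (LSD1, chr1:23019443-23083689), the other flavin-dependent demethylase and a subunit of CoREST, had normalized counts of 14337, 15389 and 15345 with DMSO, 18578, 19090, 18218 and 18752 with JQ1, and 17441, 18188 and 17710 with I-BET 762. Its treated libraries were also all above the DMSO libraries, but the difference was below 1.5-fold. The log2 fold change was 0.31 (SE 0.04, limma adjusted p = 9.94e-06) with JQ1 and 0.24 (SE 0.05, adjusted p = 0.000343) with I-BET 762. KDM1A remained the more abundant of the pair. Per kb of transcript it was at 4870 normalized counts with DMSO, 6049 with JQ1 and 5763 with I-BET 762, and KDM1B at 118, 377 and 341. KDM1A, KDM1B, KDM4D, SETD4, SETD6 and SETD9 are members that the study picked out from these same samples, so their direction here is not independent evidence.

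Among the SETD and SMYD proteins outside the groups with a defined histone residue, 10 of 11 members were tested. JQ1 raised 2 and lowered 1 of these 10, and I-BET 762 raised 2 and lowered none. SETD9 (ENSG00000155542.12, chr5:56909260-56925532), a SET domain protein with little known of its substrates, had normalized counts of 434, 471 and 506 with DMSO, 856, 980, 781 and 833 with JQ1, and 773, 746 and 833 with I-BET 762. The 7 treated libraries lay above the 3 DMSO libraries, and the treated groups overlapped. SETD9 rose by a log2 fold change of 0.87 (SE 0.08, limma adjusted p = 9.1e-08) and 0.74 (SE 0.09, adjusted p = 2.39e-06).

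SETD6 (ENSG00000103037.12, chr16:58515479-58523842), which methylates the NF-kappaB subunit RELA, had normalized counts of 809, 928 and 936 with DMSO, 1528, 1423, 1519 and 1523 with JQ1, and 1430, 1364 and 1435 with I-BET 762. The treated libraries were again all above DMSO. The log2 fold change was 0.75 (SE 0.06, limma adjusted p = 1.56e-08) with JQ1 and 0.66 (SE 0.06, adjusted p = 2.9e-07) with I-BET 762. At equal totals both values were 0.57, short of 1.5-fold. Of the SETD6 exon bases, 17.5% overlap CNOT1 on the opposite strand, whose mean was 29621, 30980 and 32522 normalized counts in the DMSO, JQ1 and I-BET 762 libraries, and whether counting used the strand is not given in the sources used here. Another annotated gene, not analysed here, overlaps 11.3% of the SETD6 exon bases on the same strand.

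SETD4 (chr21:36034541-36079389), a lysine methyltransferase linked to stem cell quiescence, had normalized counts of 699, 745 and 712 with DMSO, 1001, 965, 959 and 989 with JQ1, and 907, 798 and 827 with I-BET 762. It was higher in all 7 treated libraries, yet by a log2 difference of only 0.45 (SE 0.06, limma adjusted p = 6.75e-06) with JQ1 and 0.23 (SE 0.06, adjusted p = 0.00604) with I-BET 762, so it was not a DEG. SMYD2 (chr1:214281102-214337131), which methylates p53 among other proteins, fell with JQ1 from a mean of 2314 ± 53.2 (SD, n = 3) to 1463 ± 81.9 (n = 4) normalized counts, a log2 fold change of −0.66 (SE 0.05, limma adjusted p = 1.31e-08). With I-BET 762 it stood at 1613 ± 28.8 (n = 3), a log2 fold change of −0.52 that did not reach 1.5-fold. SETD7 and SMYD3 had positive values below 1.5-fold, 0.54 and 0.40 for SETD7 and 0.40 and 0.47 for SMYD3. The other members of the group lay between −0.43 (SETD5) and 0.17 (SETD3) with JQ1.

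The H3K9 demethylases had 10 tested members, of which JQ1 raised 1 and lowered 2, and I-BET 762 lowered 2. PHF2 (ENSG00000197724.11, chr9:93576584-93679587), a PHD finger Jumonji protein, had normalized counts of 2008, 1787 and 1892 with DMSO, 1001, 907, 966 and 1059 with JQ1, and 1202, 1135 and 1110 with I-BET 762. The 3 groups did not overlap, with JQ1 lowest. PHF2 fell with a log2 fold change of −0.95 (SE 0.06, limma adjusted p = 1.7e-09) with JQ1 and −0.72 (SE 0.07, adjusted p = 1.91e-07) with I-BET 762. PHF8, its close relative, had log2 differences of −0.03 and −0.09.

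KDM4D (ENSG00000186280.7, chr11:94973709-94999519), an H3K9 demethylase without the PHD and Tudor domains of KDM4A, KDM4B and KDM4C, had normalized counts of 217, 197 and 212 with DMSO, 111, 121, 82 and 110 with JQ1, and 138, 136 and 127 with I-BET 762. Every JQ1 library was below every I-BET 762 library, and both groups were below DMSO. KDM4D fell by 0.99 (SE 0.13, limma adjusted p = 5.12e-06) and by 0.64 (SE 0.14, adjusted p = 0.000972) on the log2 scale. None of KDM4A, KDM4B and KDM4C was a DEG, with log2 differences of 0.08, 0.24 and 0.18 with JQ1 and 0.23, −0.02 and 0.14 with I-BET 762. Of the KDM4A exon bases, 40.2% overlap another annotated gene on the same strand, which was not analysed here.

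KDM7A (ENSG00000006459.11, chr7:140084746-140176983), which removes methylation from H3K9 and H3K27, was a DEG with JQ1 alone. The libraries held normalized counts of 1103, 1108 and 1050 with DMSO, 1721, 1880, 1752 and 1636 with JQ1, and 1198, 1199 and 1262 with I-BET 762. JQ1 libraries stood well apart from both other groups, and the I-BET 762 libraries lay just above DMSO. KDM7A had a log2 fold change of 0.68 (SE 0.06, limma adjusted p = 2.18e-08) with JQ1 and 0.17 (SE 0.06, adjusted p = 0.0263) with I-BET 762. At equal totals the JQ1 value was 0.50, below 1.5-fold.

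The divergent noncoding RNA KDM7A-DT (chr7:140177184-140179640) starts 201 bases from KDM7A on the other strand by these annotated positions. KDM7A-DT had normalized counts of 96.9, 99.8 and 108 with DMSO, 156, 175, 193 and 124 with JQ1, and 123, 104 and 108 with I-BET 762. The JQ1 libraries were the highest, with replicate 20 close to the top I-BET 762 library, and DMSO overlapped I-BET 762. KDM7A-DT rose with JQ1 by a log2 fold change of 0.65 (SE 0.14, limma adjusted p = 0.000805) and had 0.13 (SE 0.15, adjusted p = 0.471) with I-BET 762. Without JQ1 replicate 19 the JQ1 value was 0.56, and at equal totals 0.47, both below 1.5-fold. The other H3K9 demethylases, KDM3A, KDM3B and JMJD1C, had log2 differences of 0.36, −0.26 and −0.08 with JQ1.

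**Figure D3:**
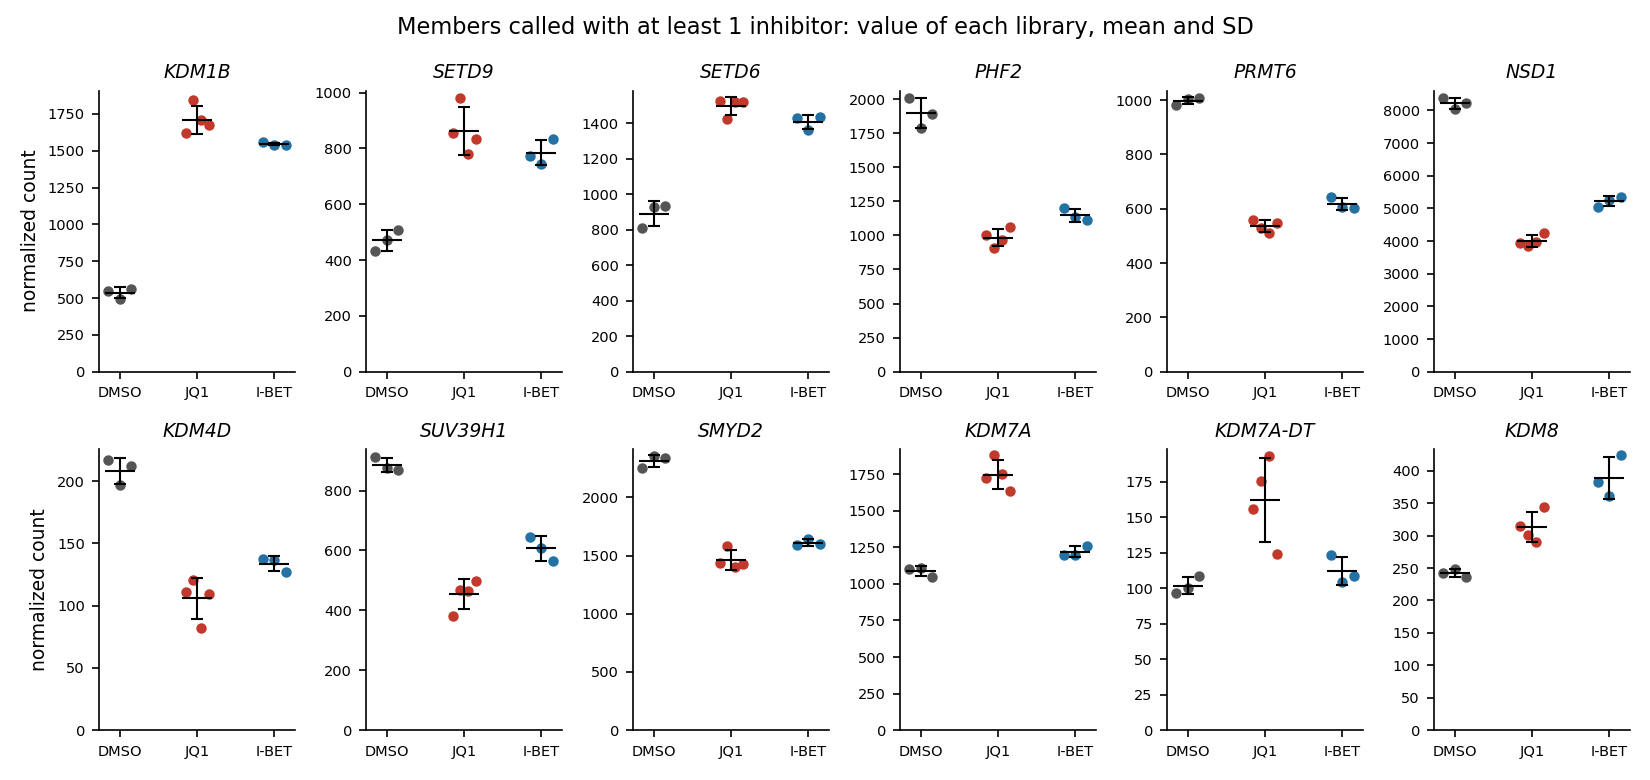
Normalized counts of the 12 members that were DEGs with at least 1 inhibitor, 1 panel per gene with its own axis from 0; points are libraries (3 DMSO, 4 JQ1, 3 I-BET 762), long bars means and whiskers SD. KDM1B moved from a mean of 536 to 1712 and 1546 normalized counts, and KDM7A stands apart with JQ1 only.

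SUV39H1 (ENSG00000101945.17, chrX:48695554-48709016), which trimethylates H3K9 in constitutive heterochromatin, fell with JQ1. It had normalized counts of 912, 876 and 867 with DMSO, 382, 467, 466 and 499 with JQ1, and 646, 610 and 565 with I-BET 762. The 3 groups did not overlap. The log2 fold change was −0.97 (SE 0.09, limma adjusted p = 4.52e-08) with JQ1 and −0.55 (SE 0.09, adjusted p = 8.8e-05) with I-BET 762, the latter below 1.5-fold. That value passed 1.5-fold at equal totals (−0.64) and without I-BET 762 replicate 21 (−0.59). Of its exon bases, 21.2% overlap another annotated gene on the opposite strand, which was not analysed here.

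SUV39H2, the paralog with the same activity, lay on the other side of DMSO. SUV39H2 had normalized counts of 1605, 1739 and 1730 with DMSO, 2548, 2732, 2362 and 2424 with JQ1, and 2059, 2064 and 2151 with I-BET 762, and again no groups overlapped. The log2 difference was 0.57 (SE 0.06, limma adjusted p = 1.69e-07) with JQ1, just under 1.5-fold, and 0.31 (SE 0.06, adjusted p = 0.000373) with I-BET 762. Leaving out 1 of 4 single libraries in turn (DMSO replicate 14 or 15, JQ1 replicate 19 or 20) brought the JQ1 value to 0.59 or 0.60 and past 1.5-fold. SUV39H2 was already the more abundant of the pair with DMSO, at 553 against 324 normalized counts per kb. With JQ1 the levels were 823 and 166 normalized counts per kb. EHMT1, which makes H3K9 dimethylation, was not a DEG, with 0.22 and 0.12. SUV39H2 was singled out after its values were seen.

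NSD1 (ENSG00000165671.22, chr5:177131830-177300213), an H3K36 dimethylase, was the only H3K36 methyltransferase of 5 called with either inhibitor. NSD1 had normalized counts of 8384, 8056 and 8221 with DMSO, 3951, 3850, 3968 and 4254 with JQ1, and 5059, 5268 and 5350 with I-BET 762. The 3 groups were well separated, with JQ1 lowest. NSD1 fell by 1.04 (SE 0.05, limma adjusted p = 1.35e-11) with JQ1 and by 0.65 (SE 0.05, adjusted p = 1.55e-08) with I-BET 762 on the log2 scale. It was the only member besides KDM1B to pass a threshold of 2-fold with JQ1. The other NSD genes had smaller values in the same direction, −0.48 and −0.30 for NSD2 and −0.26 and −0.09 for NSD3. SETD2, the H3K36 trimethylase, and ASH1L lay on the other side of DMSO, at 0.19 and 0.15 and at 0.21 and 0.20. At equal totals NSD2 passed 1.5-fold with JQ1, at −0.66.

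PRMT6 (ENSG00000198890.9, chr1:107056674-107067636), which dimethylates arginine 2 of histone H3, was the only arginine methyltransferase of 7 that was a DEG. Its normalized counts were 983, 1003 and 1006 with DMSO, 559, 529, 511 and 546 with JQ1, and 644, 606 and 602 with I-BET 762. DMSO was highest and JQ1 lowest, with no overlap. PRMT6 fell with a log2 fold change of −0.89 (SE 0.06, limma adjusted p = 2.2e-09) with JQ1 and −0.69 (SE 0.07, adjusted p = 2.03e-07) with I-BET 762. The abundant PRMT1 and PRMT5 had log2 differences of 0.35 and −0.25 with JQ1 and 0.20 and −0.17 with I-BET 762. PRMT2 was closest to the threshold with I-BET 762, at 0.52, and had 0.33 with JQ1. PRMT3, PRMT7 and PRMT9 had 0.06, 0.32 and −0.02 with JQ1.

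KDM8 (JMJD5, ENSG00000155666.12, chr16:27203508-27221768), a Jumonji protein described as an H3K36 demethylase, was a DEG with I-BET 762 alone. Its normalized counts were 242, 249 and 237 with DMSO, 315, 301, 290 and 344 with JQ1, and 383, 361 and 424 with I-BET 762. It was the 1 called member in which I-BET 762 lay farther from DMSO than JQ1 did, and the groups did not overlap. The log2 fold change was 0.68 (SE 0.09, limma adjusted p = 1.35e-05) with I-BET 762 and 0.36 (SE 0.09, adjusted p = 0.00162) with JQ1. At equal totals the I-BET 762 value was 0.58, just below 1.5-fold. Of its exon bases, 14.5% overlap another annotated gene on the opposite strand, which was not analysed here. KDM2A and KDM2B, the other H3K36 demethylases, had −0.01 and 0.24 with JQ1 and 0.05 and 0.20 with I-BET 762.

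Several role groups held no DEG with either inhibitor. The 7 members listed as H3K4 methyltransferases, whose activity was not tested, include the MLL proteins KMT2A to KMT2D. They lay between −0.35 (KMT2E) and 0.22 (KMT2B) with JQ1, and between −0.29 (SETD1B) and 0.23 (KMT2C) with I-BET 762. Of these 7, 4 had an adjusted p under 0.05 in limma with JQ1 and 2 with I-BET 762. Another annotated gene, not analysed here, overlaps 18.3% of the KMT2A exon bases on the same strand. The 3 H3K4 demethylases KDM5A, KDM5B and KDM5C had 0.09, −0.14 and −0.06 with JQ1. The H3K27 demethylases had −0.10 (KDM6A) and −0.36 (KDM6B) with JQ1 and −0.06 and −0.46 with I-BET 762.

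The H4K20 methyltransferases had 0.24 (KMT5A), −0.45 (KMT5B) and −0.39 (KMT5C) with JQ1 and 0.16, −0.11 and −0.53 with I-BET 762. Of the 75-base exon stretches of KMT5A, 24.0% have an exact copy elsewhere in the genome, so its counts, and those of the pseudogene KMT5AP2 (23.1%), are uncertain. DOT1L, the H3K79 methyltransferase, had 0.33 and −0.09. JMJD6, whose substrate has been debated, had 0.06 and 0.04. Of the 5 noncoding or pseudogene symbols, 3 were tested and KDM7A-DT alone was a DEG. PRMT5-AS1 rested on at most 13 reads in any library and KMT5AP2 on at most 125.

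JQ1 and I-BET 762 were compared directly at the same dose and time, as 1 pair of compounds. None of the 60 members was a DEG between them, against 5.31% of all tested symbols (1.73% higher and 3.59% lower with JQ1). An adjusted p under 0.05 in limma was reached by 23 members (38.3%, against 27.3% of all tested symbols), 10 higher with JQ1 and 13 higher with I-BET 762, and an unadjusted p under 0.05 by 28. The libraries of the compounds did not overlap for 28 members (10 higher and 18 lower with JQ1), against 33.8% of all tested symbols. With limma-voom on the recovered reads these counts were also 0, 23 and 28. Leaving out each library in turn gave 0 or 1 DEG, the 1 being KDM7A-DT without JQ1 replicate 20 (log2 difference 0.64, limma adjusted p = 0.00227).

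KDM7A had the largest difference between the compounds, 0.52 on the log2 scale (JQ1 minus I-BET 762, 95% confidence interval 0.40 to 0.64, limma adjusted p = 1.21e-05). KDM7A-DT had the same estimate with a wider interval, 0.21 to 0.82 (adjusted p = 0.0153 in limma). Its adjusted p was 0.0680 without I-BET 762 replicate 22 and 0.0590 without I-BET 762 replicate 23. Lower with JQ1 than with I-BET 762 were SUV39H1 (−0.42, interval −0.61 to −0.24, limma adjusted p = 0.00193), NSD1 (−0.38, −0.48 to −0.29, adjusted p = 2.58e-05) and KMT5B (−0.34, −0.46 to −0.22, adjusted p = 0.000465). KMT5B had mean normalized counts of 2385 ± 127 with DMSO, 1741 ± 113 with JQ1 and 2205 ± 32.3 with I-BET 762 (SD, n = 3, 4 and 3). KDM8 was also lower with JQ1 (−0.32, −0.50 to −0.13, limma adjusted p = 0.0149), but without I-BET 762 replicate 23 the adjusted p was 0.0917. PHF2 and PRMT6, which fell with both, were lower with JQ1 by smaller differences, −0.23 (limma adjusted p = 0.0151) and −0.20 (adjusted p = 0.0223).

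**Figure D4:**
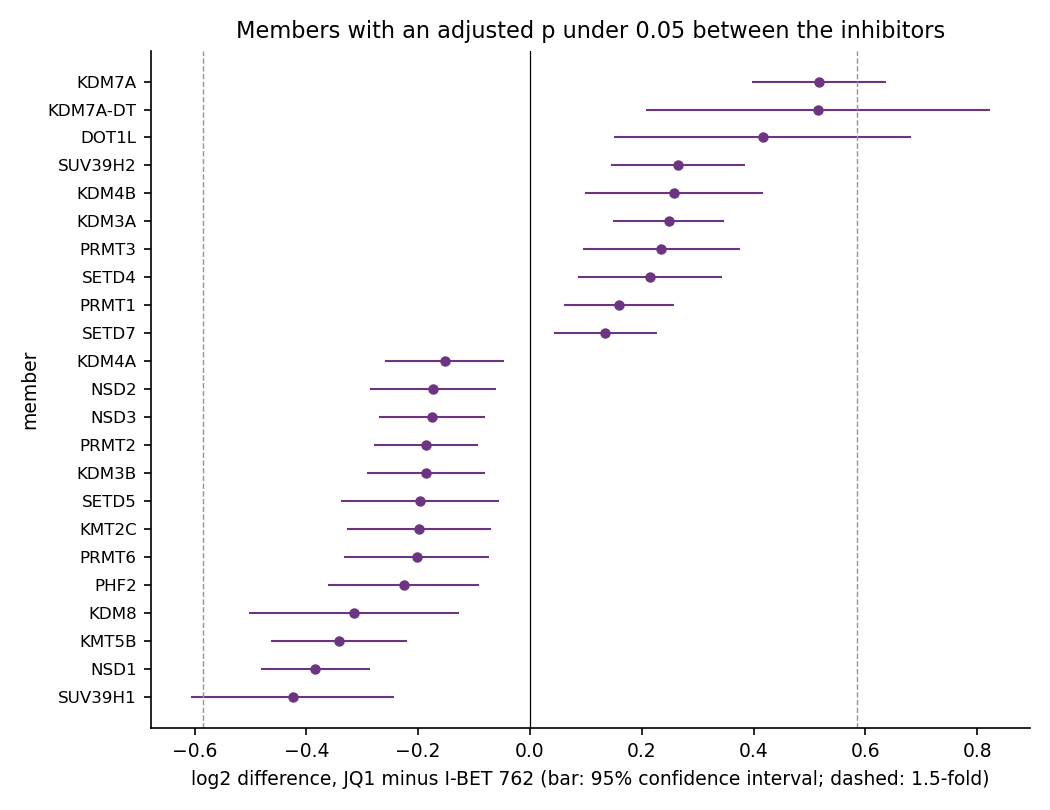
Log2 difference, JQ1 minus I-BET 762, of the 23 members with a limma adjusted p under 0.05 between the inhibitors, with its unadjusted 95% confidence interval as a bar and 1.5-fold as dashed lines. The estimates run from −0.42 (SUV39H1) to 0.52 (KDM7A), all inside the dashed lines.

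For SETD6, SETD9, KDM1B and KDM4D, which were called alike with both inhibitors, the difference was bounded but not shown to be absent. The JQ1 minus I-BET 762 difference was 0.09 for SETD6 (95% confidence interval −0.04 to 0.22, limma adjusted p = 0.307) and 0.13 for SETD9 (−0.04 to 0.31, adjusted p = 0.241). KDM1B, the most changed member, had a difference of 0.15 (0.01 to 0.28, limma adjusted p = 0.0936). SMYD2, a DEG with JQ1 alone, had a difference of −0.14 (−0.25 to −0.03, limma adjusted p = 0.0563), so the call with 1 compound only was not matched by a difference between the compounds past the threshold. The interval of KDM4D was wide, −0.63 to −0.07 around −0.35 (limma adjusted p = 0.0612).

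The direct difference of DOT1L depended on single libraries. Its normalized counts were 635, 553 and 544 with DMSO, 841, 541, 855 and 699 with JQ1, and 547, 508 and 568 with I-BET 762. JQ1 replicate 18 lay among the DMSO and I-BET 762 libraries and the other 3 JQ1 libraries above them. The direct difference was 0.42 (95% confidence interval 0.15 to 0.68, limma adjusted p = 0.0216). The adjusted p was 0.000175 without JQ1 replicate 18, and it was 0.0627 without JQ1 replicate 17, 0.0649 without JQ1 replicate 19, 0.0638 without I-BET 762 replicate 21 and 0.0902 without I-BET 762 replicate 22. At equal totals the adjusted p was 0.102 and without the intensity trend 0.0834. JQ1 replicate 18 was the lowest of the JQ1 libraries in 23 of the 60 tested members (38.3%), against 28.8% of all tested symbols.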

How the data were processed

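RNA-seq values of SK-UT-1 cells were analysed for 10 of the 12 samples in the labels. DMSO replicate 16 and I-BET 762 replicate 24 were not analysed here. Per the labels and the study's methods, the authors checked reads with FastQC 0.73, trimmed them with Trimmomatic, aligned them to hg38 with HISAT2 2.2.1, counted them on Gencode genes with featureCounts 2.0.3, normalized with DESeq2 and excluded outlier samples. The strand setting of the counting and the way gene identifiers were merged into symbols are not given in the sources used here. The values as deposited by the authors are log2 of the normalized count plus 1. Within each library 99.77% to 99.81% of them were whole multiples of 1 read (tolerance 0.1 read), which gave reads and depth. No pair of libraries within a group was identical.

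Symbols with a normalized count of at least 10 in at least 3 libraries were fitted with limma 3.58.1 (R 4.3.3), all libraries in 1 model with an intensity trend and Benjamini-Hochberg adjustment over the 14839 symbols tested. The pseudocount was the deposited 1. A fold change is on the log2(normalized count + 1) scale, which understates changes of low genes. The code was tested on simulated data. Positions, exons and transcript lengths are from Gencode V44 on GRCh38. Exon stretches of 75 bases were looked up in the main chromosomes. Promoters came from RefSeq (GRCh38.p14) for 57 of the 63 members, and all 6 examined were identical to hg38. Tables were prepared with Python 3.11.15 and pandas 2.3.3. The confidence intervals, like the p-values, measure only the spread between these libraries. Floors of reads cover counting error only.

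The members and lists were chosen with earlier results of these data known. By rule, every library's value is given for the members called alike with both inhibitors and those the study names. Members that were DEGs with 1 inhibitor, the highest of each role group per length and those under the filter are named with means or fold changes. SUV39H2, NSD3, SMYD3, SETD7, PRMT2, KMT5B, PHF8, the further values by role group, the KDM7A promoter, and the library values of DOT1L, KDM7A, KDM7A-DT, SUV39H1, SUV39H2 and KDM8 were chosen after the values were seen. A list of 40 partner genes was counted. Alternatives were pseudocounts of 0.5 and 5, no filter, a mean of at least 100, equal totals, equal upper quartiles, no intensity trend, limma-voom on recovered reads, a model of only the groups compared, no threshold on fold, a fold of 2, and leaving out each library.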

Additional observations from a re-analysis of the deposited data

Results flagged for a closer look

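Single outlying libraries were looked for only in the JQ1 group, which had 4 libraries. Dixon's gap ratio (the gap from the extreme library to its nearest neighbour over the whole range) passed its critical value there for 4 of the 60 tested members, or 6.67%, against 7.04% of all tested symbols. The DMSO and I-BET 762 groups, with 3 libraries each, were not screened. Chance flags about 1 in 20 groups. EHMT1 had a ratio of 0.928, with JQ1 replicate 18 at a log2 value of 11.62 and the other 3 libraries at 11.87 to 11.89. SETD6 had 0.910, with the same library at 10.48 and the others at 10.57 to 10.58, all above the DMSO libraries. KDM2A had 0.922, with JQ1 replicate 20 at 12.43 and the others at 12.14 to 12.16. KDM4C had 0.947, with JQ1 replicate 17 at 10.75 and the others at 10.83 to 10.84.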

How the results depend on the processing

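The count of changed members followed the fold threshold. Without it 44 members passed with JQ1, 36 with I-BET 762 and 23 between the inhibitors, and a fold change over 2 left 2 with JQ1 and 1 with I-BET 762. With single libraries left out, the counts were 11 to 12 members with JQ1, 8 to 9 with I-BET 762 and 0 to 1 between the inhibitors, the latter without JQ1 replicate 20. Equal totals turned the direction of 9 members with JQ1 (to values of −0.157 to −0.0026) and 4 with I-BET 762 (−0.0854 to −0.0122), none of them a DEG. With JQ1 these were JMJD6 (−0.1273), SETD3 (−0.0157), KDM4A (−0.1071), KDM4C (−0.0026), KDM5A (−0.0903), KMT2C (−0.157), PRMT3 (−0.1227), KMT5AP2 (−0.0423) and PRMT5-AS1 (−0.0215). With I-BET 762 they were KDM2A (−0.0441), JMJD6 (−0.0546), KMT2B (−0.0122) and PRMT9 (−0.0854). With single libraries left out, KDM2A with JQ1 ran from −0.0809 to 0.0238 and was above 0 without DMSO replicate 13 or JQ1 replicate 17, 18 or 19. PHF8 with JQ1 ran from −0.0696 to 0.0054 and was above 0 without JQ1 replicate 17. At equal totals SETD6 (both inhibitors), KDM7A, KDM7A-DT and KDM8 (I-BET 762) fell short of 1.5-fold, while NSD2, KMT5B and SETD5 with JQ1 (−0.66, −0.64 and −0.61) and SUV39H1, KMT5C and SMYD2 with I-BET 762 (−0.64, −0.63 and −0.62) passed it. That rescaling moves all tested symbols down by its own construction, and the cause of the other changes was not tested. Single values under all the alternatives were followed for 33 members against DMSO and 6 between the inhibitors. Of these values, 610 with JQ1, 620 with I-BET 762 and 113 between the inhibitors kept their direction and their side of the thresholds. No paired analysis was possible because the groups share no replicate number. Members with few reads, such as PRMT5-AS1, are limited by depth.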

Other observations

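Partners of the histone methylation enzymes were counted from a list of 40 genes with values, of which 36 were tested. JQ1 raised 4 and lowered 6 of them (27.8%, against 36.1% of all tested symbols), and I-BET 762 raised 2 and lowered 3 (13.9%, against 26.9%). RCOR1, the CoREST subunit that links KDM1A to nucleosomes, rose with both, from 3553 ± 91.7 (SD, n = 3) normalized counts with DMSO to 6665 ± 100.4 (n = 4) with JQ1 and 6112 ± 121 (n = 3) with I-BET 762, log2 fold changes of 0.91 and 0.78. MLLT3 (AF9), which recruits DOT1L, rose from 27.7 ± 0.842 to 98.8 ± 19.1 and 123 ± 27.5 normalized counts, log2 fold changes of 1.78 and 2.09. PRDM16, a zinc finger protein with a SET-like PR domain, fell from 151 ± 19.4 to 29.3 ± 4.66 and 35.6 ± 8.39, log2 fold changes of −2.33 and −2.07. HSPBAP1 and RIOX1, a Jumonji-type protein and a ribosomal oxygenase, fell by 1.19 and 1.08 with JQ1 and by 1.10 and 0.89 with I-BET 762 on the log2 scale. The limma adjusted p of these 5 genes lay between 1.81e-11 (RCOR1 with JQ1) and 1.27e-05 (RIOX1 with I-BET 762).

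The 12 partners of the COMPASS and MLL complexes held 1 DEG with JQ1, NCOA6 (−0.70, limma adjusted p = 1.85e-05), and 0 with I-BET 762, where 6 of the 12 had an adjusted p under 0.05. The 4 arginine methyltransferase partners held none with either inhibitor. SETDB1, an H3K9 trimethylase outside the naming rule, fell with JQ1 (−0.69, limma adjusted p = 3.25e-07). EHMT2, the usual partner of EHMT1, is listed at 0 to 0.984 normalized counts in every library and was not tested; the cause of this low value was not tested.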
